A study of Rattus norvegicus with 14 samples.

Results

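The synaptic vesicle and release machinery was followed in cultures of rat hippocampal neurons and astrocytes that had been treated with allopregnanolone (Allo), a neurosteroid made from progesterone. The machinery was taken as a list of 41 gene symbols for the proteins that store transmitter in vesicles, dock and fuse the vesicles, sense calcium and recover the membrane. Of these, 40 had a row in the tables, and Snap25 was not analysed here. A member was tested where its mean normalized count was at least 10, which kept all 40 in neurons (of 15314 genes tested) and 32 in astrocytes (of 15380). A normalized count is an estimated read count per gene that the authors scaled so that libraries of the same culture are on the same scale.

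All cultures came from embryonic day 18 Sprague Dawley rats. Neurons were kept in supplement-reduced aging-model (AM) medium for 4 h, and then in the same medium with 100 nM Allo (AM-Allo, 4 libraries) or with ethanol vehicle (AM-Veh, 4 libraries) for 16 h. Astrocytes, taken from shaken mixed glia, had 24 h in AM medium made with charcoal-stripped serum and then 24 h with 100 nM Allo (3 libraries) or vehicle (3 libraries). Both arms of each comparison thus had the AM medium, and no library without it was analysed here. The labels do not say whether libraries of a group came from separate cultures, so the p-values measure only the spread between these libraries.

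In a presynaptic terminal, transporters fill vesicles with transmitter, and synapsins hold a reserve of them near the release site. At the active zone, whose scaffolds include Bassoon and Piccolo, RIM and Munc13 dock and prime vesicles. The SNARE proteins of vesicle and plasma membrane then zip together to fuse the vesicles. Calcium entering with an action potential binds synaptotagmins, which trigger fusion with complexins as clamps and helpers, and dynamin, amphiphysin and synaptojanin then take part in retrieving the membrane. In the hippocampus most excitatory terminals load glutamate through Slc17a7 (VGLUT1).

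Depth was estimated at 19500000 to 25200000 reads in each neuron library and at 22200000 to 27900000 in each astrocyte library. The neuron cultures held glia as well as neurons. The summed normalized counts of 13 astrocyte markers (256519 to 317959 in AM-Veh, 255004 to 308041 in AM-Allo) were above those of 20 neuron markers (121425 to 134522 in AM-Veh, 130167 to 141981 in AM-Allo), with Gfap and Map2 the highest counts of each list, none corrected for gene length. In astrocyte cultures Nefl and Nefm of the neuron list and Neurod2, Neurod6, Tbr1, Lhx6 and Npy of a list of 15 glutamatergic and GABAergic neuron markers were each below 3 normalized counts in every library. The members of these lists that passed the minimum there summed to 44145 to 45416 (14 genes, led by Stmn2) and to 2078 to 2250 (5 genes, led by Gad1 at 1719 to 1948). In such bulk libraries fewer cells of a type and less RNA per cell cannot be told apart. The neuron libraries carry a number in 2 parts in each group (1-1, 1-2, 2-1 and 2-2), whose meaning the labels do not give, and they stood apart by the first part. Between first numbers 2 and 1, 9.61% of the 15314 genes were higher and 7.61% lower at an adjusted p under 0.05 by limma, so the neuron results are also summarised within the first numbers and with them as a replicate block.

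Before any treatment effect, the members were compared by culture. Tables of the cultures were normalized separately, so AM-Veh levels are given side by side in CPM, counts scaled to the same table total in every library, with no test. Of the 40 members, 39 were higher in every AM-Veh neuron library than in any AM-Veh astrocyte library, and 32 had enough counts in astrocytes for a ratio. The share of all genes in this order was not computed, so the count cannot be read as particular to the members. The median of those ratios was 6.43, 13 were at least 10 and 11 were below 3. Among the 32 members with a ratio, that of Syt1 was the largest, 185. Syt1, the fast calcium sensor of release, was at 185 ± 15.4 (SD, n = 4) in neuron and 0.996 ± 0.205 (SD, n = 3) in astrocyte cultures. Syt4 had a ratio of 177, and Syp (synaptophysin, the vesicle protein long used as a synapse marker) one of 81.1.

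The ratio nearest to 1 was that of Napa. Napa (alpha-SNAP), which helps take apart spent SNARE complexes in all cells, was at 79.1 ± 4.01 (SD, n = 4) and 70.8 ± 1.41 (SD, n = 3), a ratio of 1.12. Vamp1, a vesicle SNARE, had a ratio of 1.57 and Unc13b (Munc13-2), a priming factor, one of 1.58, while the ATPase Nsf had 5.16. Syt11, a synaptotagmin that does not bind calcium in the usual way, had the highest counts of the members in both cultures, at 1200 and 320 CPM, which are not corrected for gene length. Sv2c was the exception to the order. This vesicle glycoprotein was at 5.29 ± 1.01 (SD, n = 4) in neuron and 15.3 ± 0.467 (SD, n = 3) in astrocyte cultures, and every AM-Veh astrocyte library was above every AM-Veh neuron library. The 8 members below the minimum in astrocytes were Sv2b, Slc17a6, Slc17a7, Syt2, Doc2b, Cplx1, Erc2 and Sncb, and Sncb was at 0 in all 3 AM-Veh astrocyte libraries.

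**Figure D1:**
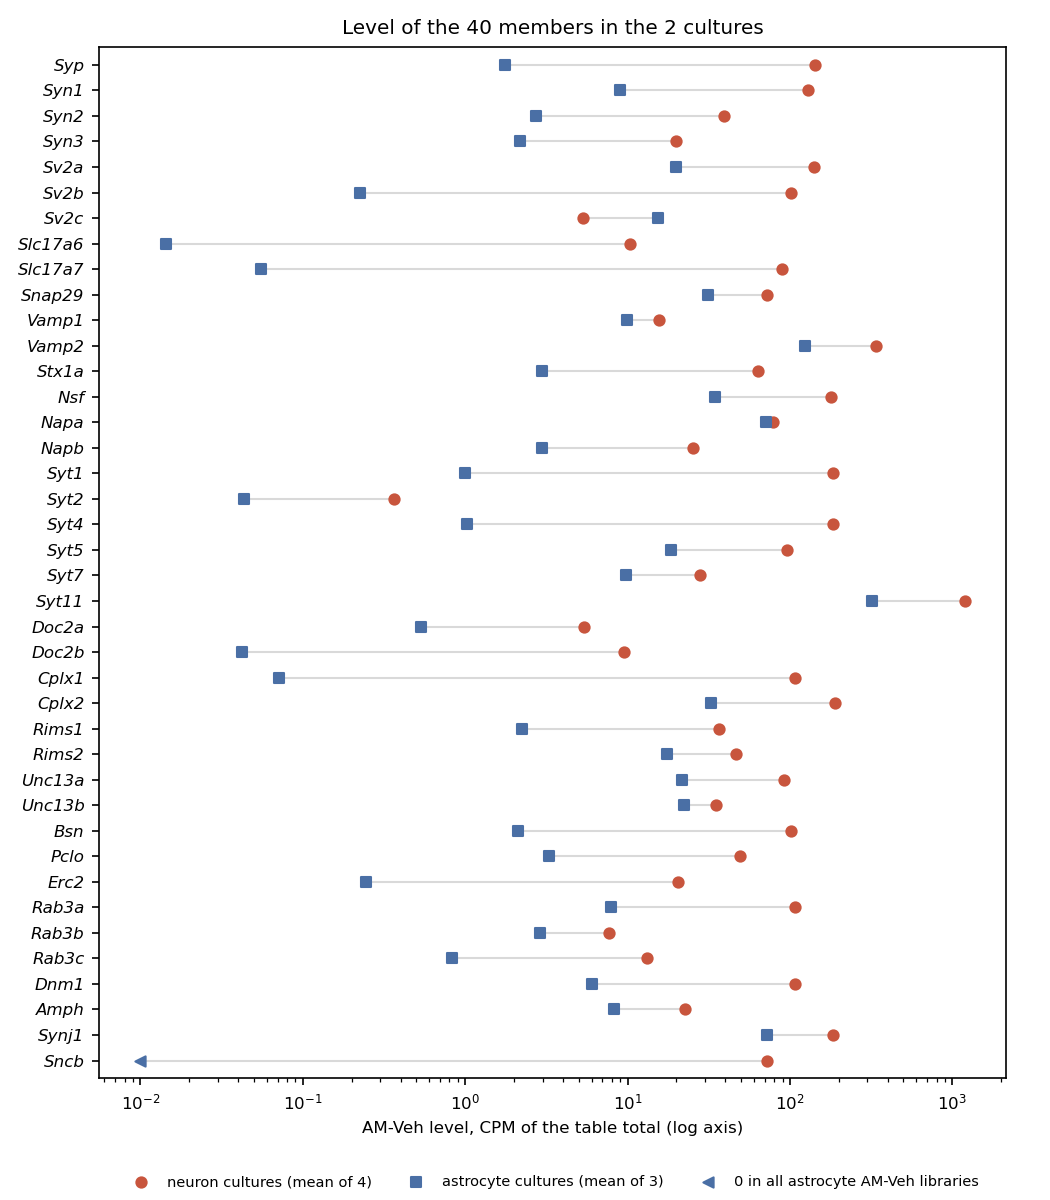
Mean AM-Veh level of the 40 members in neuron cultures (circles, 4 libraries) and astrocyte cultures (squares, 3 libraries), in CPM on a log axis, with a triangle at the left edge for a level of 0. All members except Sv2c have the circle to the right of the square, Napa by a ratio of 1.12 and Syt1 by 185.

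CREB signaling is one of the pathways the study asked about, and the promoters of the members were therefore searched for the palindromic cAMP response element that CREB binds. Promoters were the 250 bases before to 50 after each gene start in RefSeq on the GRCr8 assembly, and 34 members had one. The full element, TGACGTCA, which reads the same on both strands, stood in 3 of the 34 (8.82%) and in 1.83% of all 33469 promoters. The shorter site TGACG, searched on both strands and contained in the full element, stood in 14 (41.2%) and in 21.2%. The 3 members with the full element are shown with 100 bases that lie upstream of the gene start, and capitals mark the element, which starts 190 bases before the start in Syn1 (chrX:3725509-3725608, + strand), 71 in Vamp1 (chr4:159698777-159698876, + strand) and 59 in Napa (chr1:85915330-85915429, + strand).
Syn1: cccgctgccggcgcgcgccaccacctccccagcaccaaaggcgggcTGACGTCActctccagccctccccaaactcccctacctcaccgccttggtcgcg
Vamp1: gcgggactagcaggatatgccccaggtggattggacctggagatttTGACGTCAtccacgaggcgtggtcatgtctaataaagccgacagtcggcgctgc
Napa: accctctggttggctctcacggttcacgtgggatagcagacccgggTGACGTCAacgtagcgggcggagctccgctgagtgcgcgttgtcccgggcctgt
A match describes letters, not binding. None of these 3 members passed an unadjusted p of 0.05 between AM-Allo and AM-Veh in either culture, and their values are given with their roles.

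In neurons, AM-Allo was compared with AM-Veh by limma on log2 of the normalized count plus 1. No member had an adjusted p under 0.05, a share of 0.0261% among all genes (4 of 15314). At an unadjusted p under 0.05, 10 of the 40 were higher in AM-Allo and 0 lower, against 3.21% higher and 2.48% lower among all genes. These were Syn2, Syn3, Sv2b, Slc17a7, Syt2, Syt7, Pclo, Dnm1, Amph and Synj1. The log2 fold change was positive for 27 members and negative for 13, with a median of 0.051, while the median of all genes was −0.0015. That median became 0.019 when AM-Allo 2-1 was left out, 0.03 when AM-Veh 2-2 was, and 0.082 when AM-Allo 1-2 was, and the SD of the members' median among the AM-Veh libraries was 0.0706. In 4 members (Sv2b, Syt2, Syt7 and Amph) the lowest AM-Allo value exceeded the highest AM-Veh value, and in 0 the reverse held, against 2.06% and 1.89% of all genes. With the first number as a replicate block, 12 members were higher and 1 lower at an unadjusted p under 0.05, against 5.76% and 5.24%, and 1 (Syt4) had an adjusted p under 0.05, against 0.679%. The study lists Syn2, Syn3, Syt4 and Syt7 among genes that changed in these same libraries, so their direction here is not independent evidence.

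**Figure D2:**
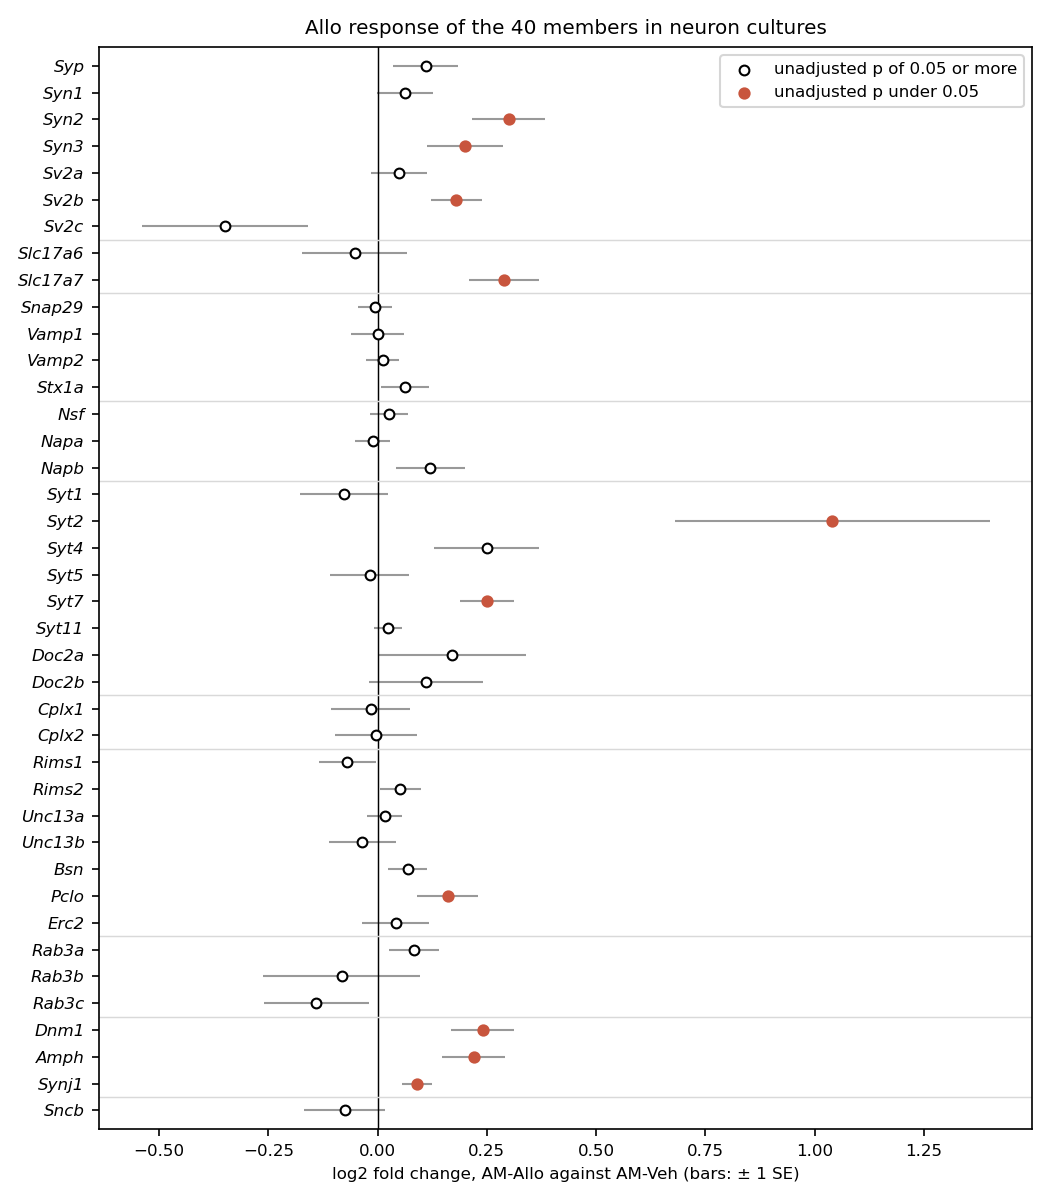
Log2 fold change of AM-Allo against AM-Veh for the 40 members in neuron cultures (points) with 1 standard error on each side (bars), ordered by role and separated by grey lines. The 10 filled points have an unadjusted p under 0.05 by limma and all lie to the right of 0, from 0.09 in Synj1 to 1.04 in Syt2, while open points lie on both sides.

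Of the vesicle membrane group, 3 of 7 members were higher at an unadjusted p under 0.05. Values of neuron libraries are given below as normalized counts in the order 1-1, 1-2, 2-1 and 2-2. Syn2 (synapsin II), a phosphoprotein that tethers reserve vesicles, was at 999, 874, 878 and 735 in AM-Veh and at 1059, 992, 1067 and 1149 in AM-Allo. Only AM-Veh 1-1 reached the range of the AM-Allo libraries. Its log2 fold change was 0.30 ± 0.083 (SE), with an unadjusted p of 0.00474 and an adjusted p of 0.591 by limma. Syn3, the synapsin of early neuronal development, was at 450, 399, 478 and 426 in AM-Veh and at 472, 446, 568 and 541 in AM-Allo, and the groups overlapped. Its log2 fold change was 0.20 ± 0.087 (SE) with an unadjusted p of 0.0392 by limma, and that p passed 0.05 in 5 of the 8 fits that each left out 1 library (the exceptions were those that left out AM-Veh 2-1, AM-Allo 1-1 and AM-Allo 1-2), up to 0.119. Sv2b, a transporter-like vesicle glycoprotein, was at 2402, 2185, 2302 and 2049 in AM-Veh and at 2412, 2435, 2780 and 2518 in AM-Allo, with no overlap but AM-Veh 1-1 close below AM-Allo 1-1. It had a log2 fold change of 0.18 ± 0.058 (SE), an unadjusted p of 0.00994 and an adjusted p of 0.665 by limma.

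The vesicle membrane member with the highest counts was Syp, at 3334, 3108, 3367 and 2813 in AM-Veh and 3200, 3053, 3733 and 3623 in AM-Allo. The libraries 2-1 and 2-2 of AM-Allo were the highest and AM-Veh 2-2 the lowest, and the fold change of 0.11 ± 0.074 (SE) on the log2 scale had an unadjusted p of 0.177. Syn1 and Sv2a had log2 fold changes of 0.063 and 0.049 (unadjusted p = 0.343 and 0.453). Sv2c had the lowest log2 fold change of all members, −0.35 ± 0.19 (SE), at 109, 88.8, 131 and 141 in AM-Veh and 78.1, 71.1, 122 and 98.3 in AM-Allo. Within each first number both AM-Allo values were below both AM-Veh values, and its unadjusted p of 0.0982 was 0.0102 with the first number as a block (adjusted p = 0.264). Such separation of 2 libraries from 2 held in many of the 40 members. AM-Allo lay below AM-Veh in this way in 14 and above in 8 in first number 1, and below in 1 and above in 27 in first number 2. The share of all genes was not computed.

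Of the vesicular glutamate transporters, Slc17a7 was at 2244, 1905, 2001 and 1726 in AM-Veh and at 2322, 2166, 2588 and 2535 in AM-Allo. Only AM-Veh 1-1 reached into the range of AM-Allo. The log2 fold change was 0.29 ± 0.080 (SE), with an unadjusted p of 0.00419 and an adjusted p of 0.589, and 0.0854 with the block by first number. Slc17a6 (VGLUT2), which loads glutamate in many subcortical and developing neurons, was at 262, 217, 216 and 213 in AM-Veh and 250, 180, 241 and 210 in AM-Allo. It showed no such difference (log2 fold change −0.052 ± 0.12 SE, unadjusted p = 0.663).

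The SNARE proteins and the factors that take them apart gave 0 members at an unadjusted p under 0.05 among 7 tested. Vamp2 (synaptobrevin 2), the main vesicle SNARE of forebrain synapses, was at 7844, 7416, 7684 and 7304 in AM-Veh and at 7443, 7261, 7918 and 7890 in AM-Allo. The groups overlapped over nearly all of their range, with a log2 fold change of 0.012 ± 0.038 (SE) and an unadjusted p of 0.757. Stx1a (syntaxin 1A), the plasma membrane SNARE, had a log2 fold change of 0.063, Snap29 one of −0.0061 and Vamp1 one of 0.00013. Nsf, the ATPase that pulls SNARE complexes apart, was at 4212, 4042, 3888 and 3664 in AM-Veh and at 4011, 3950, 4163 and 3951 in AM-Allo (log2 fold change 0.026 ± 0.043 SE, unadjusted p = 0.559). Its adaptors Napa and Napb had log2 fold changes of −0.011 and 0.12, and unadjusted p-values of 0.787 and 0.176.

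Of the 8 synaptotagmins and Doc2 proteins, 2 were higher at an unadjusted p under 0.05. They are grouped here as calcium sensors, although Syt4 and Syt11 lack the usual calcium binding. Syt7, a slow, high-affinity synaptotagmin tied to asynchronous release and vesicle replenishment, had the smallest unadjusted p of the members. It was at 658, 604, 599 and 608 in AM-Veh and at 676, 714, 747 and 809 in AM-Allo, with no overlap between the groups. The log2 fold change was 0.25 ± 0.061 (SE), with an unadjusted p of 0.00194 and an adjusted p of 0.455, and 0.0628 with the block. Syt2, the fast sensor of brainstem and inhibitory terminals, had the largest log2 fold change, 1.04 ± 0.36 (SE), at counts near the minimum: 3.35, 13, 5.75 and 10.3 in AM-Veh and 14.9, 17.0, 16.3 and 15.9 in AM-Allo. The AM-Veh libraries differed among themselves by a CV of 53.9%, the highest of the members, and 1 read was estimated to be worth 0.873 to 1.145 normalized counts. Its unadjusted p was 0.0165 and its adjusted p 0.730.

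Like Sv2c and Slc17a6, Syt4 falls outside the rule for members given in full and was chosen after its values were seen. This synaptotagmin, which lacks a usual calcium site and also sits on dense-core vesicles, was at 3901, 3746, 4514 and 4028 in AM-Veh and at 4056, 4085, 5641 and 5726 in AM-Allo. In both first numbers both AM-Allo libraries were above both AM-Veh libraries, by a log2 fold change of 0.091 in first number 1 and of 0.41 in first number 2. This order was seen in 8 members in first number 1 and in 27 in first number 2, and the share of all genes was not computed. Sv2b, Syt2, Syt7, Syt11, Amph and Synj1 also had it in both first numbers, so it was not particular to Syt4. Without a block the log2 fold change of 0.25 ± 0.12 (SE) had an unadjusted p of 0.0549 and an adjusted p of 0.880 by limma, and with the block by first number an adjusted p of 0.0464. With the whole number as the block its adjusted p was 0.0708, and the 1 member under 0.05 was then Dnm1 (adjusted p = 0.0487).

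Syt11 was at 27116, 27080, 26207 and 26174 in AM-Veh and at 27823, 27632, 26293 and 26591 in AM-Allo, the least variable member among AM-Veh libraries (CV 1.97%). The libraries of first number 2 were all below those of first number 1. Within each first number both AM-Allo values were above both AM-Veh values, by little. Over all libraries the treatments overlapped (log2 fold change 0.023 ± 0.032 SE for Allo, unadjusted p = 0.480). Syt1 and Syt5 had log2 fold changes of −0.077 and −0.018. Doc2a and Doc2b, soluble calcium sensors of spontaneous and asynchronous release, had 0.17 ± 0.17 (SE) and 0.11 ± 0.13 (SE), with unadjusted p-values of 0.338 and 0.418.

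Cplx2 (complexin 2), a SNARE-binding clamp and activator, was at 4599, 4690, 3839 and 3586 in AM-Veh and at 4515, 4451, 3953 and 3702 in AM-Allo. The libraries of first number 1 were all above those of first number 2, and AM-Allo and AM-Veh overlapped (log2 fold change −0.0035 ± 0.093 SE, unadjusted p = 0.971). Cplx1 was alike in this, with a log2 fold change of −0.016.

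At the active zone, 1 of 7 members was higher at an unadjusted p under 0.05. Pclo (Piccolo), a giant scaffold of the presynaptic web, was at 1139, 1117, 1119 and 1006 in AM-Veh and at 1190, 1077, 1322 and 1316 in AM-Allo. The AM-Allo libraries 2-1 and 2-2 were far above the rest, and AM-Allo 1-2 lay within AM-Veh. Its log2 fold change was 0.16 ± 0.069 (SE) with an unadjusted p of 0.0430, which was over 0.05, up to 0.123, in 6 of the 8 fits that left out 1 library (the exceptions were those that left out AM-Veh 1-1 and AM-Allo 1-2). Bsn (Bassoon), its partner scaffold, was at 2395, 2314, 2211 and 2083 in AM-Veh and 2447, 2361, 2327 and 2301 in AM-Allo. The groups overlapped, and the unadjusted p of 0.154 was 0.0487 with the first number as a block (log2 fold change 0.069 ± 0.032 SE in that fit). Rims1, Rims2, Unc13a, Unc13b and Erc2, which tether calcium channels, prime vesicles or build the active zone matrix, had log2 fold changes of −0.069 to 0.052 and unadjusted p-values of 0.292 to 0.695.

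Rab3a, the vesicle GTPase that recruits RIM, was at 2566, 2384, 2415 and 2175 in AM-Veh and at 2557, 2302, 2668 and 2578 in AM-Allo. The groups overlapped, with AM-Veh 2-2 the lowest library (log2 fold change 0.083 ± 0.058 SE, unadjusted p = 0.177). Rab3b and Rab3c had log2 fold changes of −0.082 and −0.14 (unadjusted p = 0.655 and 0.263).

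All 3 members of the endocytosis group were higher at an unadjusted p under 0.05. Dnm1 (dynamin 1), the GTPase that pinches off recovered vesicles, was at 2497, 2294, 2581 and 2227 in AM-Veh and at 2718, 2486, 3092 and 3061 in AM-Allo. Within each number the AM-Allo library was the higher one, and across groups AM-Allo 1-2 overlapped with AM-Veh. Its log2 fold change was 0.24 ± 0.073 (SE), with an unadjusted p of 0.00798 and an adjusted p of 0.650. Amph (amphiphysin), a membrane-bending partner of dynamin, was at 530, 528, 484 and 467 in AM-Veh and at 532, 554, 638 and 619 in AM-Allo. The groups did not overlap, although AM-Veh 1-1 and AM-Allo 1-1 nearly met (log2 fold change 0.22 ± 0.072 SE, unadjusted p = 0.0121, adjusted p = 0.694). Synj1 (synaptojanin 1), the lipid phosphatase that helps strip clathrin coats, was at 4326, 4067, 3984 and 3900 in AM-Veh and at 4328, 4343, 4347 and 4293 in AM-Allo. The AM-Allo libraries lay close together, and AM-Veh 1-1 lay among them. The log2 fold change was 0.09 ± 0.035 (SE) with an unadjusted p of 0.0269, over 0.05 in 5 of the 8 fits that left out 1 library (the exceptions were those that left out AM-Veh 1-1, AM-Allo 1-1 and AM-Allo 2-2).

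Sncb (beta-synuclein), an abundant presynaptic protein, was at 1662, 1541, 1715 and 1476 in AM-Veh and at 1391, 1294, 1762 and 1661 in AM-Allo. The AM-Allo libraries of first number 1 were the lowest of all 8 and AM-Allo 2-1 the highest, and the log2 fold change over all was −0.075 ± 0.093 (SE) with an unadjusted p of 0.436. Of the 10 members at an unadjusted p under 0.05, the 7 other than Syn3, Pclo and Synj1 kept it with each of the 8 libraries left out in turn. By a two-sided exact permutation test, the 4 members without overlap had p = 0.0286, the smallest that 4 libraries against 4 allow. With treatments exchanged only within first numbers (36 arrangements, a test added after seeing the data), the exact permutation p of each was 0.0556, again the smallest possible. The lack of overlap by which these members were picked fixes both values in advance, so they add no support.

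**Figure D3:**
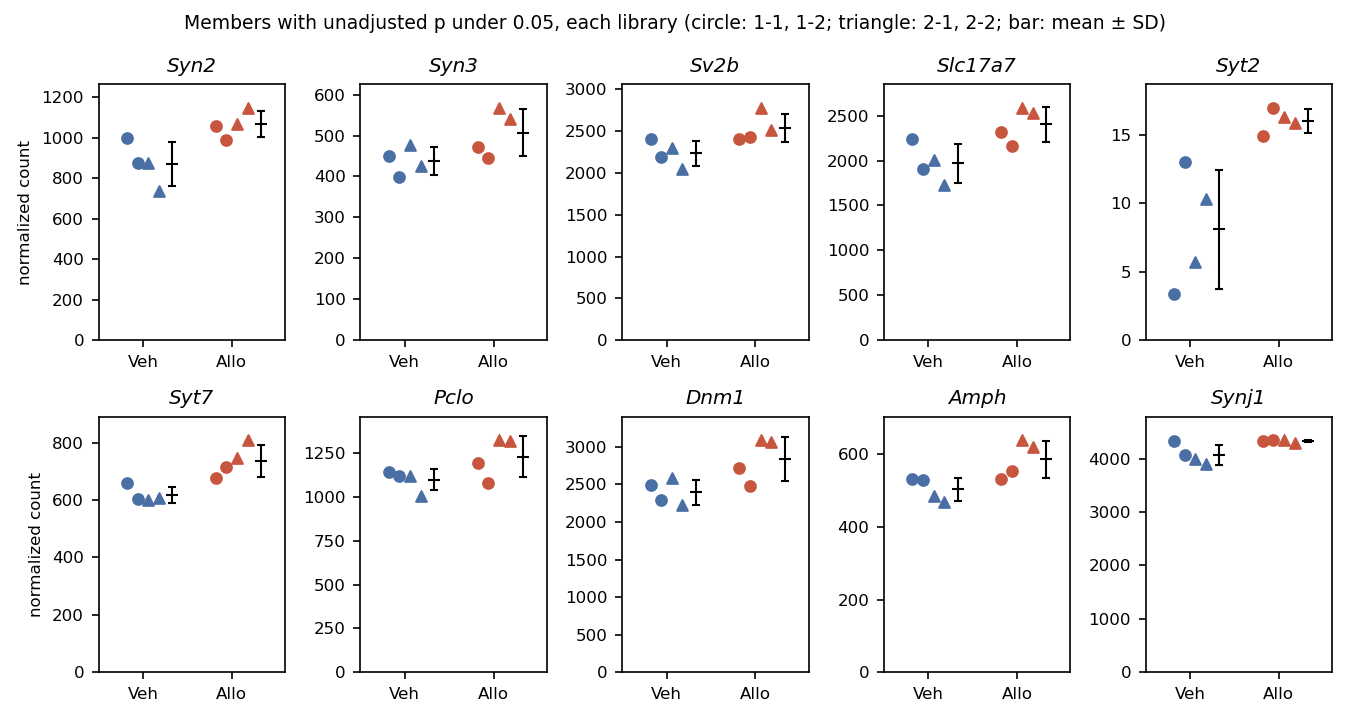
Normalized count in each neuron-culture library for the 10 members with an unadjusted p under 0.05, with circles for libraries 1-1 and 1-2, triangles for 2-1 and 2-2, and a black bar for the mean with 1 SD on each side; each panel starts at 0. In most panels the AM-Allo triangles are the highest points, and in Sv2b, Syt2, Syt7 and Amph no AM-Allo point falls to the AM-Veh points.

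Over both treatments, members also differed by first number. At an adjusted p under 0.05 by limma, 9 of the 40 differed, 5 higher and 4 lower in first number 2. The higher ones were Sv2c (log2 difference 0.51, adjusted p = 0.00812), Rab3b (0.50), Syt4 (0.32), Syt5 (0.25) and Syt1 (0.22). The lower ones were Cplx2 (log2 difference −0.28, adjusted p = 2.41e-05), Cplx1 (−0.23), Unc13b (−0.21) and Syt11 (−0.059). These shares lay near the background of all genes given above. In Syt1 the first numbers overlapped in AM-Veh (4222 and 3771 against 4523 and 3836) and did not in AM-Allo (3522 and 3282 against 4602 and 4198). Gfap, the leading astrocyte marker of the cultures, moved with the first number as well, from 68164 to 78721 in first number 1 and from 107404 to 118740 in first number 2. Its part in the members' difference was not tested.

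The response to Allo was also taken within each first number. In first number 1 alone, 15 log2 fold changes were positive and 25 negative, with a median of −0.047, and in first number 2 alone 37 were positive and 3 negative, with a median of 0.11. In first number 1, 2 members (Syt4 and Dnm1) were higher at an unadjusted p under 0.05 and 5 (Syt1, Syt5, Rims1, Rab3c and Sncb) lower, against 4.19% and 3.79% of all genes, and 0 had an adjusted p under 0.05, against 0.222%. In first number 2, 20 were higher and 0 lower, against 7.04% and 5.49%. Of these, 9 (Amph, Dnm1, Pclo, Slc17a7, Sv2b, Syn1, Syn2, Syt4 and Syt7) had an adjusted p under 0.05, against 1.74%. Each of these fits has 2 libraries a group. Counted by sign, 23 members were below AM-Veh in first number 1 and above it in first number 2, 14 above in both, 2 below in both and 1 the other way round.

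The difference itself was tested as an interaction of treatment and first number, a fit chosen after seeing the data. It was positive in 37 of the 40 members, with a median of 0.21 on the log2 scale, while the median of all genes was −0.0067. At an unadjusted p under 0.05, 22 members had a larger response in first number 2 and 0 a smaller one, against 5.44% and 4.09% of all genes. No member had an adjusted p under 0.05, against 0.0784%. The smallest p was that of Syt4 (difference 0.32 ± 0.064 SE, unadjusted p = 0.000161, adjusted p = 0.107). Syn1, one of the members with the cAMP response element, was at 3009 and 2848 in AM-Veh and 2842 and 2680 in AM-Allo of first number 1, and at 2885 and 2679 in AM-Veh and 3306 and 3133 in AM-Allo of first number 2. Its groups did not overlap within either first number and lay in opposite order, a difference of 0.30 ± 0.068 (SE) with an unadjusted p of 0.000579 and an adjusted p of 0.171. Such separation of 2 libraries from 2 was common among the members, as given above, and its share over all genes was not computed.

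The largest differences were in the Doc2 sensors. Doc2a was at 138 and 112 in AM-Veh and 109 and 113 in AM-Allo of first number 1, and at 127 and 101 in AM-Veh and 178 and 142 in AM-Allo of first number 2. The AM-Allo libraries of first number 2 were the highest of all 8, and the difference was 0.65 ± 0.24 (SE), with an unadjusted p of 0.0163 and an adjusted p of 0.389. Doc2b had a difference of 0.59 ± 0.18 (SE). Syt2, Vamp1 and Syt11 were the 3 members with a negative difference. The count of 22 was 12 without AM-Veh 2-2, 14 without AM-Veh 1-1 and 15 to 24 without any other single library, and 5 members (Sncb, Syn1, Syp, Syt1 and Syt4) had an adjusted p under 0.05 without AM-Veh 2-1, against 0.633% of all genes in that fit.

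**Figure D4:**
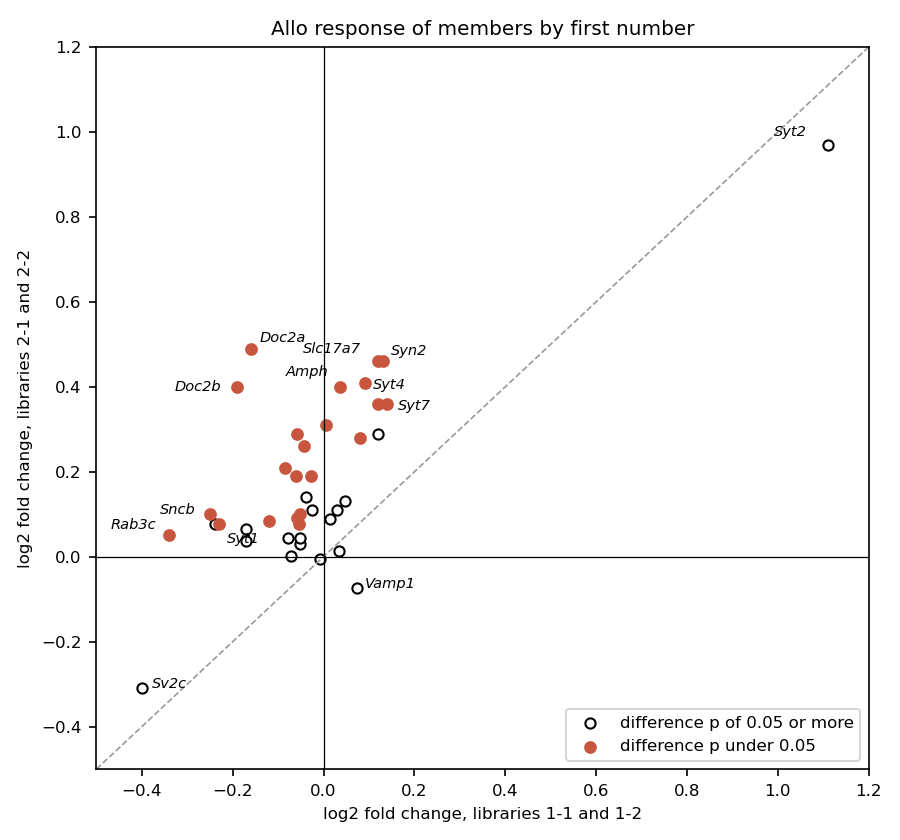
Log2 fold change of AM-Allo against AM-Veh for the 40 members in first number 1 (horizontal axis, libraries 1-1 and 1-2) and in first number 2 (vertical axis, libraries 2-1 and 2-2), with a dashed line where the responses are equal. The 22 filled points have an unadjusted p under 0.05 for the difference and all lie above the line, and 23 of the 40 points lie in the upper left, negative in first number 1 and positive in first number 2.

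Of the marker lists, that of general neuron markers moved in the same libraries as the members. The median of the 40 members relative to their AM-Veh means was 0.079, −0.0043, 0.02 and −0.091 on the log2 scale in AM-Veh and 0.031, −0.0004, 0.16 and 0.098 in AM-Allo. That of the 20 neuron markers was 0.087, 0.0053, 0.016 and −0.099 in AM-Veh and 0.036, 0.0096, 0.12 and 0.13 in AM-Allo. In both lists AM-Veh 2-2 was the lowest library, and AM-Allo 2-1 and 2-2 were the highest. Of the neuron markers, 5 (Map2, Tubb3, Dcx, Celf4 and L1cam) were higher and 1 (Nefl) lower in AM-Allo at an unadjusted p under 0.05, and 14 of 20 had a larger response in first number 2. Among all genes 3.21% were higher and 2.48% lower, and 5.44% had a larger and 4.09% a smaller response. Of the 13 astrocyte markers tested, 0 had an unadjusted p under 0.05 between AM-Allo and AM-Veh, and 3 had a smaller response in first number 2. Their log2 fold change was negative in 12 of 13. In first number 2 alone 12 were negative (median −0.081), 5 of them lower at an unadjusted p under 0.05 and 1 at an adjusted p, where the median of the members was 0.11. When every library was scaled to the median of the neuron markers, a scaling chosen after seeing the data, 5 members (Syn2, Slc17a7, Syt2, Syt7 and Dnm1) were higher and 1 (Sv2c) lower in AM-Allo at an unadjusted p under 0.05, against 0.784% and 5.19% of all genes, and the median log2 fold change became −0.021. The interaction then gave 1 member with a larger and 2 with a smaller response in first number 2 (Doc2b, Syt11 and Vamp1 in all), against 0.686% and 27.4% of all genes, with a median of 0.018. This scaling moved the median of all genes to −0.073 for Allo and to −0.20 for the interaction. It subtracts the markers' median in each library from every gene, so these shifts of medians follow from the list medians above and add no support. The part of the neuron markers in the members' values was not tested.

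Other marker lists moved otherwise. The 15 glutamatergic and GABAergic neuron markers, led by Gad2, had log2 fold changes with a median of −0.15. Of these 15, 2 were higher and 2 lower in AM-Allo at an unadjusted p under 0.05. With the first number as a block, 3 were higher and 7 lower, 3 of the latter at an adjusted p under 0.05. In first number 1 alone their median was −0.48 and 9 were lower. Of 12 oligodendrocyte lineage markers, 11 had a positive log2 fold change (median 0.098), and 2 were higher at an unadjusted p under 0.05, or 8 with the block. All 10 proliferation genes had a positive log2 fold change (median 0.084), with 0 at an unadjusted p under 0.05, or 3 with the block. Among all genes 3.21% were higher and 2.48% lower without the block, and 5.76% and 5.24% with it. In first number 1 alone 3.79% of all genes were lower. The part of these lists in the members' values was not tested.

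**Figure D5:**
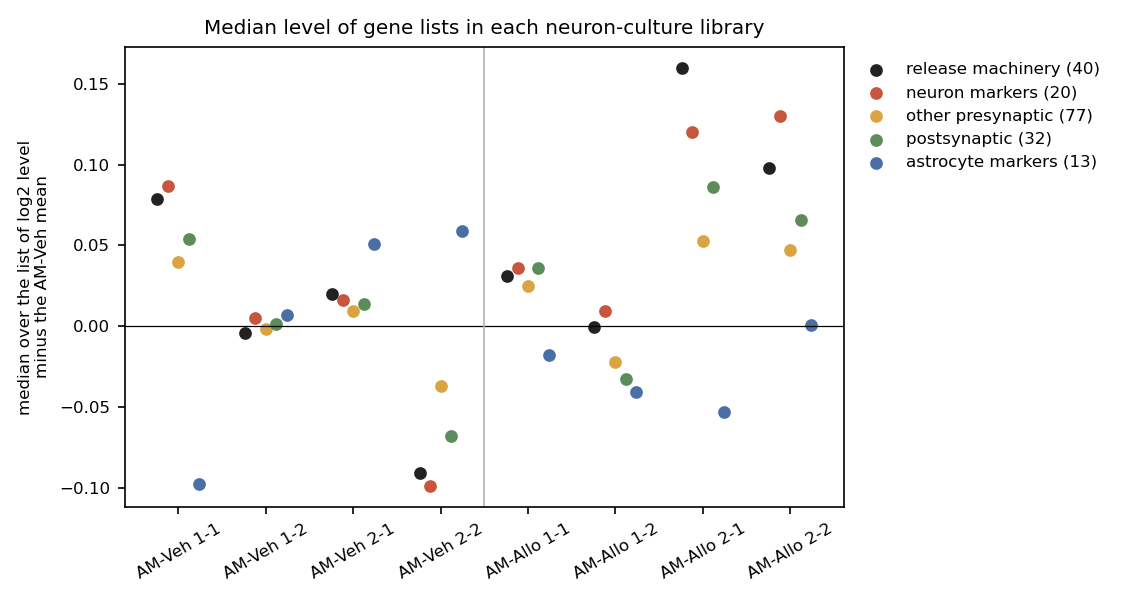
Median over each list of the log2 level minus the gene's AM-Veh mean, for each of the 8 neuron-culture libraries and 5 lists, with the number of genes tested in brackets and a vertical line between AM-Veh and AM-Allo. The members (black) and the neuron markers (red) lie close together in each library, lowest in AM-Veh 2-2 at −0.091 and −0.099 and highest in AM-Allo 2-1 and 2-2. The other presynaptic and the postsynaptic lists are lowest and highest in the same libraries.

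Other presynaptic genes were followed for comparison. Of 77 tested in neurons, 3 were higher and 2 lower in AM-Allo at an unadjusted p under 0.05, near the 3.21% and 2.48% of all genes. Their median log2 fold change was 0.017. Dnm3 (dynamin 3) had the smallest p. Its mean was 953 ± 32.4 (SD, n = 4) in vehicle and 1153 ± 30.2 (SD, n = 4) in Allo libraries with no overlap, and its log2 fold change of 0.27 ± 0.040 (SE) had an adjusted p of 0.0947, and of 0.00512 with the block by first number. Its log2 fold change was 0.25 in first number 1 and 0.30 in first number 2. Syt13 (log2 fold change 0.27) and Rimbp2 (0.13), a RIM-binding scaffold, were the others that were higher, and Mctp1 (−0.47) and the Rab3 effector Rph3a (−0.26) the lower ones, with adjusted p-values of 0.650 to 0.796. Of 32 genes of the postsynaptic density, 3 were higher and 1 lower, and their median log2 fold change was 0.031. In the interaction, 19 other presynaptic genes had a larger and 3 a smaller response in first number 2 at an unadjusted p under 0.05, and 12 and 0 of the postsynaptic genes did. Among all genes the shares were 5.44% and 4.09%.

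In astrocytes, 0 of the 32 members tested had an adjusted p under 0.05 by limma, against 0.0065% of 15380 genes. At an unadjusted p under 0.05, 0 were higher and 1 was lower in AM-Allo, against 3.72% and 3.29% of all genes. Log2 fold changes were positive for 15 and negative for 17, with a median of −0.016 beside 0.0014 for all genes. The member that was lower was Syn2, at 61.6, 66.1 and 67.2 in AM-Veh and 48.5, 31.9 and 58.5 in AM-Allo (replicates 1, 2 and 3), with AM-Allo 2 well below the other libraries. The groups did not overlap, and the log2 fold change was −0.52 ± 0.23 (SE), with an unadjusted p of 0.0388 and an adjusted p of 0.696. Its unadjusted p was over 0.05, up to 0.192, in the fits that left out AM-Veh 1, 2 or 3 or AM-Allo 2. In the neuron cultures Syn2 was the higher in AM-Allo. Whether the cultures differ in this was not tested, since the tables were normalized separately.

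Sv2a, the widespread SV2 form, was the other member without overlap in astrocytes. It was at 472, 483 and 469 in AM-Veh and at 499, 519 and 534 in AM-Allo, the reverse order to Syn2 (log2 fold change 0.12 ± 0.064 SE, unadjusted p = 0.0783). With 1 higher and 1 lower, 2 members were without overlap, against 6.42% and 6.07% of all genes, and 3 libraries against 3 cannot give an exact permutation p below 0.1. The members with the highest counts moved little. Syt11 was at 7695, 7625 and 7617 in AM-Veh and 7615, 7366 and 7679 in AM-Allo (log2 fold change −0.018 ± 0.033 SE), Vamp2 had a log2 fold change of 0.059 ± 0.040 (SE) and Synj1 one of 0.0099 ± 0.045 (SE). Napa and Vamp1 had log2 fold changes of −0.028 and −0.16 (unadjusted p = 0.514 and 0.197). Of the members tested here, Syt1 had the widest gap between the cultures and stood near the minimum, at 26.5, 18.2 and 26.6 in AM-Veh and 21.4, 23.5 and 8.54 in AM-Allo. Of 14 neuron markers tested in these cultures, 2 (Map2 and Dcx) were lower in AM-Allo at an unadjusted p under 0.05 and 0 higher, and of 13 astrocyte markers 3 (Slc1a2, S100b and Fabp7) were lower and 0 higher. Their part in the members' values was not tested. Of 66 other presynaptic genes, 2 (Stx2 at 0.12 and Sh3gl1 at 0.12 on the log2 scale) were higher and 1 (Snap91, −0.18) lower. Among all genes 3.72% were higher and 3.29% lower.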

How the data were processed

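Stranded libraries of poly(A) RNA were read from both ends. The authors estimated transcript abundance with Salmon 0.14, collapsed it to genes by tximport and computed normalized counts in DESeq2 1.18.1. For each culture they deposited a table of normalized counts per gene (a signal, since whole reads could not be recovered) and a table of variance-stabilized values on a scale close to log2. In the deposited variance-stabilized neuron table the means of first numbers 1 and 2 differed by less than 1e-06 in all 15314 genes tested, while in the normalized counts their median absolute difference was 0.088 on the log2 scale. 0 columns were left unused.

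Genes whose mean was 10 normalized counts or more were tested on log2(value + 1) with limma 3.58.1 in R 4.3.3 (lmFit, and eBayes with a trend), within each culture, with Benjamini-Hochberg adjustment over all genes tested; a fold change on this scale understates the change of low genes. The pipeline was tested on simulated data. Members and lists were chosen with earlier results of these data known. Members were given in full where the unadjusted p was under 0.05 in either culture, or in the fit with the first-number block together with no overlap, or where they had the highest mean of their role group in neurons; Sv2c, Slc17a6, Syt4, Syn1 and Doc2a in neurons and Sv2a and Syt1 in astrocytes were added after their values were seen; of other presynaptic genes, up to 3 rises and 3 falls per culture were named, and of each marker list the highest gene. After group means were removed, AM-Veh and AM-Allo neuron libraries with the same number correlated over genes at 0.229 to 0.296, those that share the first number alone at 0.185 to 0.236 and the others at −0.319 to −0.15, so the neuron libraries group by first number. The ranges for the whole number and for the first number alone overlap, so pairing by the whole number is not settled. The main fit left this grouping out, and fits with a block are given beside it. Alternatives changed the pseudocount, minimum, scaling, input table, variance model, block and libraries.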

Additional observations from a re-analysis of the deposited data

Results flagged for a closer look

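In 4 of the 80 groups of 4 neuron libraries (40 members in AM-Veh and AM-Allo), 1 library lay far from the others by Dixon's criterion, which chance alone meets in about 1 group in 20. These were Slc17a6 in AM-Veh 1-1 (262 normalized counts), Syt7 in AM-Veh 1-1 (658), Napa in AM-Allo 1-2 (1679) and Pclo in AM-Veh 2-2 (1006).

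The Allo response of 22 members differed between the first numbers of the neuron libraries at an unadjusted p under 0.05 by limma, and 0 after adjustment over all genes. Each value is the log2 response in first number 2 minus that in first number 1. Among vesicle proteins and transporters it was 0.30 for Syp, 0.30 for Syn1, 0.33 for Syn2, 0.20 for Sv2b and 0.35 for Slc17a7. Among SNARE proteins and their disassembly factors it was 0.13 for Vamp2, 0.25 for Stx1a, 0.16 for Nsf and 0.35 for Napb. The synaptotagmins and Doc2 proteins had 0.31 for Syt1, 0.32 for Syt4, 0.20 for Syt5, 0.22 for Syt7, 0.65 for Doc2a and 0.59 for Doc2b. At the active zone and among the Rab3 GTPases it was 0.15 for Unc13a, 0.31 for Pclo, 0.22 for Rab3a and 0.39 for Rab3c, and in endocytosis 0.24 for Dnm1 and 0.37 for Amph. Sncb had 0.36.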

How the results depend on the processing

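The median and the unadjusted count of neuron members stayed within the spread, or within 1.5 times, under other pseudocounts, minimums, scalings by upper quartile or quantiles, and variance models. At an adjusted p under 0.05, 0 members were found in the normalized counts, 2 (Syt4 and Syt7) in the authors' variance-stabilized values, 1 with the first number as a replicate block, 1 with the whole number as a replicate block and 9 in first number 2 alone. Of all 15314 genes, these fits gave 4, 158, 104, 93 and 267 in the same order. The fit of the variance-stabilized values held treatment alone and did not allow for the first-number difference already removed from them, so its p-values tend to be too small. The unadjusted count was 20 in first number 2 alone (10 over all libraries) and 6 scaled to the neuron markers, and the median was −0.047 in first number 1 alone and −0.021 scaled to the neuron markers. Members with a different response by first number were 22, and 11 without limma's trend, 3 scaled to the neuron markers and 12 to 24 with 1 library left out. Scaled to the neuron markers, the differences of Nsf, Unc13a and Vamp2 were −0.034, −0.041 and −0.06. In astrocytes the unadjusted count was 1, and 2 with no minimum, 2 without the trend and 0 to 3 with 1 library left out. Astrocyte libraries of the same number correlated at −0.007 to 0.024, so these numbers are not treated as pairs, and a replicate block by them left 1 member at an unadjusted p under 0.05. The comparison of first numbers was not run on the variance-stabilized values, whose means do not differ. Depth limits the members with low counts, Syt2 in neurons and Doc2a, Rab3c, Syt1 and Syt4 in astrocytes. The cause of these changes was not tested.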
